A study of Mus musculus with 12 samples.

Results

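The comparison described here is that of the mouse aorta after 3 days of the BAPN + AngII challenge with the vehicle alone, and it rests on 6 of the 12 arrays of the series. The 6 arrays were chosen by their treatment labels, not by any measured value, and fall into 3 arrays of mice given DMSO only (DMSO) and 3 arrays of mice given BAPN, AngII and DMSO (BA+DMSO). All were male C57BL/6J mice of 11 to 14 weeks that carried no transgene or deletion, with 3 mice a group and 1 array for each mouse, so that replicates are separate animals. The challenged mice received beta-aminopropionitrile (BAPN, 150 mg/kg/day), an inhibitor of the lysyl oxidases that crosslink collagen and elastin, and angiotensin II (AngII, 1 µg/kg/min), a vasopressor peptide, by continuous infusion from osmotic minipumps, and DMSO was injected into the peritoneum daily in both groups. A 10 mm length of aorta above the right renal artery was taken on day 3, and its RNA was labelled with 1 dye and hybridised to Agilent whole mouse genome arrays of 60-base probes. The titles of the DMSO arrays begin with Pre, whereas their treatment label is DMSO and their day is 3. BAPN and AngII were given together, so the part of each cannot be told apart, and whether the DMSO mice also carried pumps is not given in the sources used here. The other 6 arrays came from mice given rapamycin, an inhibitor of the kinase mTOR, without and with the challenge. They entered the statistical fit, and 2 of the unchallenged rapamycin arrays served as a check on the slide.

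The media of the aorta is built of smooth muscle cells (SMCs) between elastic lamellae. Elastin and fibrillar collagens gain their strength from crosslinks that lysyl oxidases make. Mice in which crosslinking is blocked and AngII is infused develop aortic dissection (AD), the splitting of the medial layers. In injured arteries SMCs are known to lower genes of the contractile apparatus, to enter the cell cycle and to release chemokines that recruit monocytes. AngII itself acts through the type 1 receptor on SMCs, where it evokes contraction, growth and matrix synthesis.

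Values are given as log2 levels, the log2 of a probe's processed signal minus that of the 75th percentile of its array, so that 0 is the brightness of that percentile and a difference of 1 is a doubling. Levels of different genes are not comparable on this scale. A difference is BA+DMSO minus DMSO with its standard error (SE) from the fit of all 12 arrays, and a gene was called where the p adjusted over the 27801 tested probes (Benjamini-Hochberg) was under 0.05. Of those probes 5697 were called, which is 20.5%, 2683 of them higher and 3014 lower in BA+DMSO. The 3 arrays of one group did not overlap with those of the other for 9610 of the 27801 tested probes. Of the 5697 called probes 159 had overlapping groups, so separated groups add little to a call. Taking each of the 20026 gene names by its brightest probe, 10.4% were called higher and 11% lower, with a median difference of -0.023, and the gene groups below are to be read against these shares. Counts under other settings have shares of their own. Without DMSO 1, 2 or 3 or BA+DMSO 1 the genes called were 4.57 to 6.72% higher and 3.31 to 5.83% lower, without BA+DMSO 2 14.8% and 13.7%, and without BA+DMSO 3 18.5% and 21.0%. The 75th percentile signal ranged from 221 to 280 on the DMSO arrays and from 78.1 to 246 on the BA+DMSO arrays, and 49.1 to 52.8% against 41.2 to 49.8% of probes were well above background. Any 2 DMSO arrays correlated at 0.987 to 0.990 across tested probes and any 2 BA+DMSO arrays at 0.912 to 0.961, so the challenged arrays were the more variable group. Whether this lay in the animals or in the arrays, whose brightness also varied more, was not tested. The arrays lay on 2 slides. All DMSO arrays were on one and all BA+DMSO arrays on the other, and slide and challenge cannot be told apart within the 2 groups. As 2 of the 3 unchallenged rapamycin arrays shared the slide of the BA+DMSO arrays, most groups of genes are also given against those, called the same-slide comparison, with the limit that those mice had received rapamycin. It called 5.44% of the genes higher and 4.12% lower. The titles of the DMSO arrays and of BA+DMSO 1 hold numbers that read as dates, and these differ between the groups. Titles of BA+DMSO 2 and 3 hold no such number. The number of BA+DMSO 1 also differs from those of the same-slide rapamycin arrays, so that comparison does not remove this difference. With the slide as a term of the fit, 15 probes were called, and 5692 of the 5697 differences kept their direction. Arrays are written as BA+DMSO 1, 2 and 3, counts with arrays left out refer to each array alone, the median of a list is followed in parentheses by its value under each alternative that moved it by over 1.5 times, or given with its range over the alternatives, a pair of counts for the same-slide comparison gives members higher and then lower, and a gene named as higher or lower kept its call when each of the 6 arrays was left out in turn unless an exception stands beside it. In bulk tissue fewer cells of a type and less RNA per cell cannot be told apart.

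Stretches of promoter of genes with large differences are shown first, because the gene groups described below are known for short sequence elements next to their starts. The sequences are those of RefSeq on GRCm38.p6, written 5′ to 3′ on the strand of the gene, with matches in capitals, and some matches overlap. For genes of cell division the capitals mark the CCAAT box (CCAAT, or ATTGG on the other strand), the CHR element (TTTGAA, or TTCAAA on the other strand) and the E2F site (TTTCCCGC, TTTGGCGC or TTTCGCGC on either strand). Ccnb1 (chr13:100786527-100786596, minus strand), Cdk1 (chr10:69352923-69353052, minus), Top2a (chr11:99024200-99024299, minus), Ube2c (chr2:164769829-164769918, plus), Cdc20 (chr4:118437344-118437408, minus), Uhrf1 (chr17:56304118-56304217, plus) and Mcm5 (chr8:75109344-75109448, plus) read as follows.
Ccnb1: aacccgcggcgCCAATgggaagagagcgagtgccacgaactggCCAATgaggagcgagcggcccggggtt
Cdk1: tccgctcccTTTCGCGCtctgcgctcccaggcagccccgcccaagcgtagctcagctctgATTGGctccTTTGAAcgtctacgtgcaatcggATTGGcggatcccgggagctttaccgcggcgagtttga
Top2a: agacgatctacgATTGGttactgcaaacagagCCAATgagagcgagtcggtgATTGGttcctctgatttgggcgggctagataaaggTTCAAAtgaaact
Ube2c: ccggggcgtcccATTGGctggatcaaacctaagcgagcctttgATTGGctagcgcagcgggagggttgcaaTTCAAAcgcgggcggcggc
Cdc20: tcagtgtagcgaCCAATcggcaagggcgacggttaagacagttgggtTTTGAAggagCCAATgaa
Uhrf1: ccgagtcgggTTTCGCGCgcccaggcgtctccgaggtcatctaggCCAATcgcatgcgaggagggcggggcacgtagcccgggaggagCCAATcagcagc
Mcm5: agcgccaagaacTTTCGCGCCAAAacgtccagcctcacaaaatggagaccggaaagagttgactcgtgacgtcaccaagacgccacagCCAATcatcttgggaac
For the interferon and inflammatory genes the capitals mark the interferon-stimulated response element (ISRE) in Isg15 (chr4:156200859-156200913, minus) and Rsad2 (chr12:26456538-26456587, minus) and the NF-kB site in Cxcl1 (chr5:90891155-90891204, plus) and Il6 (chr5:30013049-30013098, plus), and in Hspa1a (chr17:34972207-34972271, minus) they mark the heat shock element (GAANNTTC) and a CCAAT box.
Isg15: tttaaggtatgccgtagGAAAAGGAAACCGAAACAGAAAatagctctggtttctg
Rsad2: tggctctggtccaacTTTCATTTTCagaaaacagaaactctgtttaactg
Cxcl1: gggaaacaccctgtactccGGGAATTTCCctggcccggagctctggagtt
Il6: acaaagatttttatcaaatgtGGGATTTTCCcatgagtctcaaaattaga
Hspa1a: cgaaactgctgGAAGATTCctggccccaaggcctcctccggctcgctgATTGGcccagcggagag

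In the 250 bases before the start, a CCAAT box stood in 71.0% and a CHR in 38.7% of the promoters of the mitosis list (31 genes with a promoter sequence), against 37.5% and 18.3% of all 27025 promoters of the same length. The replication list held a CCAAT box in 64.7% and an E2F site in 26.5%, where 1.78% of all promoters held the latter. An ISRE was found in 42.3% of the interferon list against 3.46% of all, an NF-kB site in 25% of the cytokine list against 5.67%, and a heat shock element in 35.0% of the heat shock list against 7.73%. In the contractile SMC list 15.6% of 32 promoters held a CArG box, the site of serum response factor, against 1.62% of all. These matches describe the letters in the window and were not tested against the measured differences.

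Among single genes measured on all 6 arrays, the monocyte chemoattractants Ccl7 and Ccl2 had the largest rises. Ccl7 (probe at chr11:81860656-81860715, mm9), read -1.21, -2.90 and -2.92 in DMSO and 4.45, 1.39 and 2.88 in BA+DMSO (5.25 ± 0.71 SE, adjusted p = 0.00107). Ccl2, the main ligand of the monocyte receptor Ccr2 (chr11:81850650-81850709), read -0.60, -1.99 and -2.96 against 4.66, 1.92 and 3.38 (5.17 ± 0.72 SE, adjusted p = 0.00118). In both, the groups lay far apart, and BA+DMSO 2 was the lowest of the challenged arrays. Kif20a, a kinesin of the closing steps of mitosis, rose from -3.35, -3.22 and -3.29 to 2.75, -0.27 and 1.84, and Hist1h2ab, a replication-dependent histone H2A whose probe may also bind transcripts of near-identical copies, from 0.54, 0.14 and 0.51 to 5.45, 3.88 and 4.97. Prg4, the lubricant proteoglycan lubricin, went from -1.87, -3.08 and -1.46 to 3.06, 1.87 and 1.74. For these genes the lowest challenged array stood above the highest DMSO array.

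The largest fall was that of Atf3, a transcription factor induced by many stresses (chr1:192994547-192994606), which read 4.5, 4.6 and 4.41 in DMSO and -0.45, -1.03 and -0.31 in BA+DMSO (-5.10 ± 0.50 SE, adjusted p = 0.00025). On the rapamycin arrays of the challenged slide it read 2.75 and 3.25, and 3.83 on the rapamycin array of the other slide, so that it lay above the challenged arrays on both slides. Atp1b2, a beta subunit of the sodium pump, fell from 3.05, 3.16 and 2.96 to -0.62, 0.69 and 1.04. Ecm2, an extracellular matrix protein, moved from 3.30, 3.41 and 3.42 to 0.30, 0.95 and 1.44 and Kcnip4, a potassium channel interacting protein, from 1.06, 1.53 and 1.68 to -1.73, -0.92 and -0.87. Gprasp2, which sorts internalised receptors, changed by -2.66 ± 0.26 SE, adjusted p = 0.000222, and Bex4 by -2.57 ± 0.37 SE, adjusted p = 0.00144. All 3 challenged arrays were below all 3 DMSO arrays for each.

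**Figure D1:**
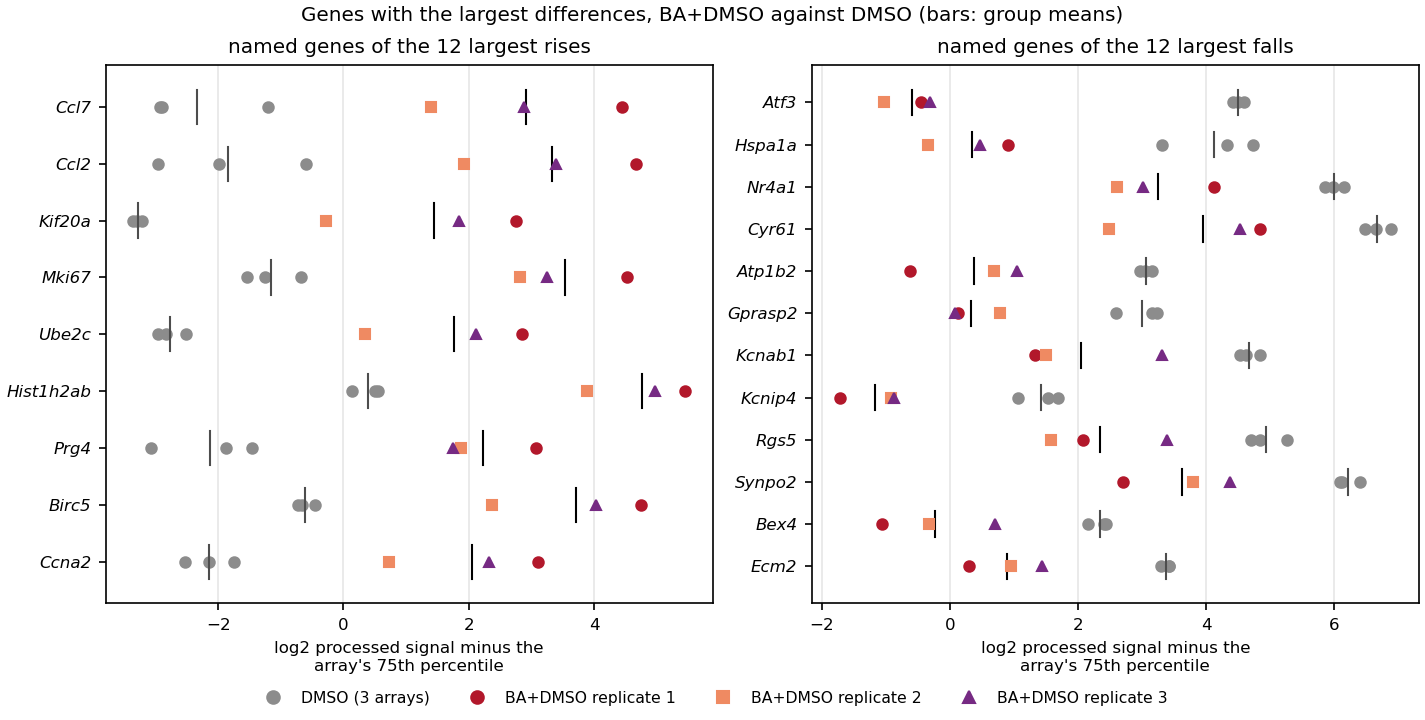
Log2 level (x axis, relative to the 75th percentile of each array) of the genes (y axis) named in the text among the 12 with the largest rise and the 12 with the largest fall of those called and measured on all 6 arrays. Points are single arrays of DMSO and BA+DMSO and bars are group means. Ccl7 and Ccl2 lead the rises and Atf3 the falls, and no gene shown has overlapping groups.

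Some genes were well above background on no DMSO array, so only a lower bound of the rise can be given, taken on each DMSO array against the higher of the dimmest signal well above background and the signal of the probe itself. Fam64a, a protein of dividing cells, was at least 27.4-fold (45.9-fold without BA+DMSO 2) higher in BA+DMSO, and Spp1 (osteopontin), a secreted ligand of integrins and CD44, at least 24.4-fold (57.3-fold without BA+DMSO 2 and 14.7-fold without BA+DMSO 3). The kinase Pbk and the phosphatase Cdkn3, both of mitosis, were at least 18.2-fold (12.2-fold without BA+DMSO 1 and 38.4-fold without BA+DMSO 2) and 17.6-fold (29.9-fold without BA+DMSO 2) higher. Their BA+DMSO levels were 1.91, -0.58 and 1.41 for Fam64a, 1.57, -1.88 and 2.05 for Spp1, 1.34, -1.98 and 1.15 for Pbk and 1.23, -1.42 and 0.53 for Cdkn3. BA+DMSO 2 was the lowest for each of the 4. Genes that were well above background in DMSO and on no BA+DMSO array included Cyp2b10, a drug-metabolising cytochrome, which was at least 4.66-fold lower, and Rab17, a small GTPase of membrane traffic, at least 4.33-fold lower. The transcription factor Onecut2 was at least 3.71-fold lower (2.82-fold without DMSO 3). Within the unchallenged rapamycin group, Onecut2 also differed by -1.61 between the slide of the BA+DMSO arrays and the other slide. Pdzrn4 and Abcc8, the latter a subunit of ATP-sensitive potassium channels, were at least 3.40-fold and 3.08-fold lower. Over all called probes, 144 had no DMSO array and 188 no BA+DMSO array well above background.

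**Figure D2:**
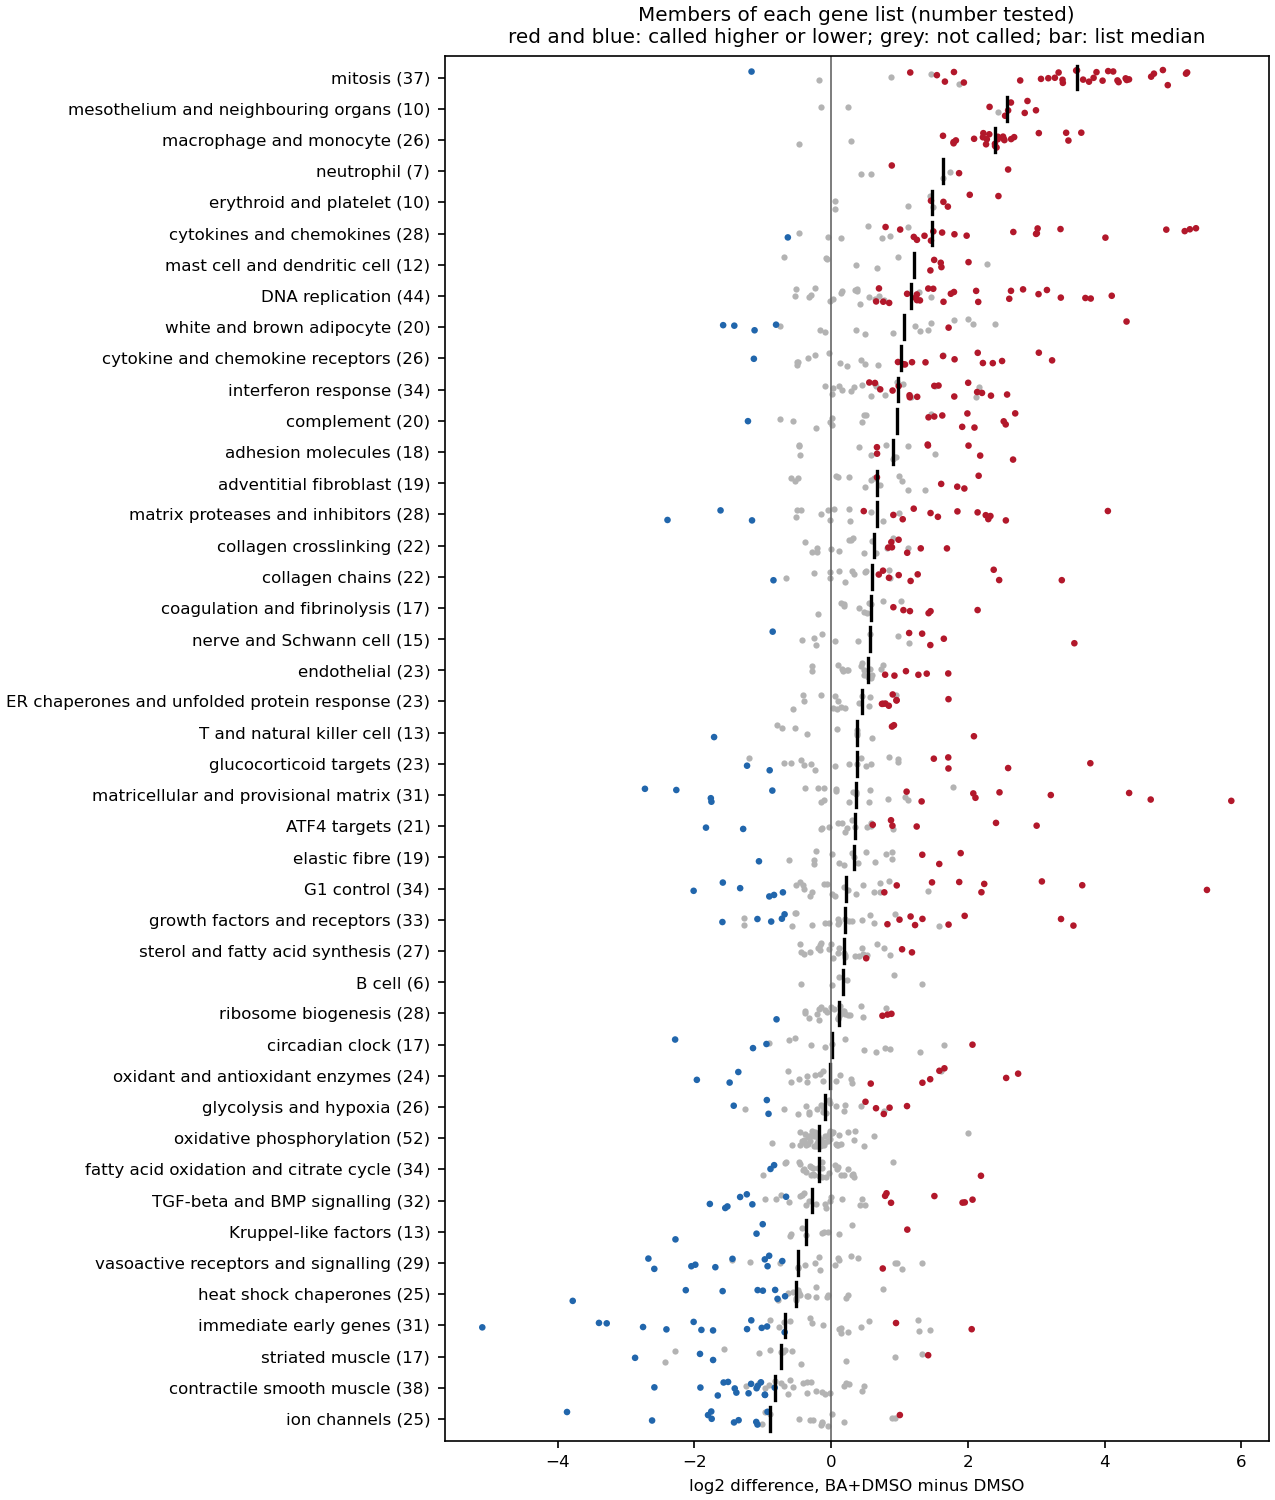
Difference BA+DMSO minus DMSO (x axis, log2) of each tested member of the 44 gene lists (y axis, number tested in parentheses). Red points were called higher, blue points lower and grey points were not called, and the bar is the median of the list. Mitosis and macrophage lists lie to the right, with medians of 3.60 and 2.40, and contractile smooth muscle to the left, with -0.82 (-0.42 without BA+DMSO 1).

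BAPN acts on the lysyl oxidases, and genes of collagen crosslinking and processing were called higher in 7 and lower in 0 of 22 tested members, with a median of 0.63. Plod2, the lysyl hydroxylase that prepares telopeptides for crosslinking, read 2.40, 2.48 and 2.47 against 3.70, 3.68 and 3.31 (1.11 ± 0.17 SE, adjusted p = 0.00198). Serpinh1, the collagen chaperone Hsp47, went from 6.43, 6.48 and 6.52 to 7.35, 7.39 and 7.20 without overlap. Pcolce, an enhancer of procollagen C-proteinase, rose by 1.31, Fkbp10, a collagen prolyl isomerase, by 0.99 and Lepre1, a prolyl 3-hydroxylase, by 0.89. Plod1, a further lysyl hydroxylase, was higher by 0.88, a call lost without DMSO 2 (0.0616) and DMSO 3 (0.051), adjusted p in parentheses. Dimmer probes of Lepre1 and Plod1 differed by 0.42 and 0.54 and were not called. Loxl4, a lysyl oxidase-like enzyme, was higher by 1.70 (adjusted p = 0.0304) and lost its call without DMSO 1 (0.0663), DMSO 2 (0.0961), DMSO 3 (0.0849), BA+DMSO 1 (0.113) and BA+DMSO 3 (0.055). Lox, the enzyme that BAPN inhibits, read 2.14, 1.89 and 1.85 in DMSO and 3.86, 1.80 and 3.60 in BA+DMSO, and its difference of 1.12 had an adjusted p of 0.0905. BA+DMSO 2 lay just below the DMSO arrays and the other 2 above them, and without BA+DMSO 2 Lox was called, with a difference of 1.77 and adjusted p = 0.000602. A further, dimmer probe of Lox differed by 1.18 and was called over all arrays, so the probes of this gene stood on either side of the threshold. Loxl2 read 3.27, 3.15 and 3.08 in DMSO and 4.43, 3.44 and 4.35 in BA+DMSO, with adjusted p = 0.0687 over all arrays and 0.0136 without BA+DMSO 2, and its 2 dimmer probes, both at a difference of 1.07, were called. Loxl1 and Loxl3 read differences of 0.33 and -0.20 and passed the test in neither case. Against the rapamycin arrays of the same slide the median of the list was 0.58 with 4 members called higher, and Plod2 differed by 1.04 (adjusted p = 0.0151).

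Of 22 chains tested, 9 were called higher and 1 lower (0 without DMSO 2 and 3 without BA+DMSO 3), with a median of 0.60 (0.37 with normexp). The chains with the largest differences were Col8a1, Col15a1 and Col12a1. Col8a1, a short-chain collagen made by migrating SMCs, read -2.86, -3.51 and -3.13 in DMSO and 1.39, -1.43 and 0.66 in BA+DMSO (3.38 ± 0.56 SE, adjusted p = 0.00295), which is 10.4-fold. Col12a1, which decorates collagen I fibrils, went from -1.0, -0.91 and -1.35 to 2.62, -0.09 and 1.34, and Col15a1, a basement membrane zone collagen, from -0.03, 0.23 and 0.65 to 3.25, 3.31 and 1.67. For all 3 chains the lowest challenged array was above the highest DMSO array, although the 2 dimmer probes of Col15a1 differed by 0.66 and 0.87 with no call. Col8a2 rose by 1.27 and Col16a1 by 1.16. The main fibrillar chains had smaller differences than these, and their calls rested on the choice of arrays. Col1a1 was higher by 0.99 (adjusted p = 0.0243), lost without DMSO 1 (0.0725), DMSO 2 (0.0894), DMSO 3 (0.0569) and BA+DMSO 1 (0.0869), and Col3a1 by 0.85 (adjusted p = 0.035), lost without DMSO 1 (0.0856), DMSO 2 (0.119), DMSO 3 (0.0808) and BA+DMSO 1 (0.0827). Col1a2 was higher by 0.70 (adjusted p = 0.0371), lost without DMSO 1 (0.0837), DMSO 2 (0.13), DMSO 3 (0.0902), BA+DMSO 1 (0.125) and BA+DMSO 2 (0.055). Without BA+DMSO 1 the difference of Col3a1 was 0.53. Basement membrane Col4a1 and Col4a2 read differences of 0.34 and 0.11 and were not called, and Col4a6 fell by 0.84, a call lost without DMSO 2 (0.0532) and absent from its dimmer probe, at -0.39. The count of chains called higher was 5 without DMSO 1, DMSO 2, DMSO 3 or BA+DMSO 1, and the same-slide comparison called 5 higher with a median of 0.63.

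The elastic fibre list gave 3 higher and 1 lower of 19 members (higher 9 without BA+DMSO 2, lower 0 without DMSO 2, DMSO 3 or BA+DMSO 1 and 2 without BA+DMSO 3). Their median was 0.34 (0.15 with normexp and 0.21 with array weights), and normexp called 3 higher and 2 lower. Fbln2, a fibulin that binds elastin and fibrillin, read 4.12, 4.29 and 4.65 against 6.65, 6.28 and 5.82 (1.90 ± 0.26 SE, adjusted p = 0.00121), and Ltbp2, which binds fibrillin, 5.34, 5.17 and 5.27 against 7.14, 7.09 and 6.29 (1.58 ± 0.23 SE, adjusted p = 0.00165). Neither gene overlapped between the groups. Eln itself, coding for tropoelastin, read 5.77, 5.63 and 5.49 in DMSO and 6.79, 5.45 and 7.33 in BA+DMSO, and Fbn1, coding for fibrillin, 4.01, 3.81 and 3.71 and 5.08, 3.46 and 4.91. BA+DMSO 1 and 3 were above DMSO for these, whereas BA+DMSO 2 lay just below the DMSO arrays. Their adjusted p was 0.108 and 0.212 over all arrays and 0.00075 and 0.000897 without BA+DMSO 2, when the list held 9 higher members. Fbln5 and Fbln1 showed differences of -0.22 and 0.34 and were not called. Ltbp4, a partner of Fbln5 in elastic fibre assembly, fell by 1.05, a call lost without DMSO 2 (0.0635), DMSO 3 (0.0608) and BA+DMSO 1 (0.0615), and its dimmer probes differed by -1.19, called, and 0.12, not called. The same-slide median was 0.41.

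Matricellular and provisional matrix genes moved in both directions, with 9 called higher and 5 lower of 31. Spp1, described above, read -4.41, -5.81 and -5.60 in DMSO and 1.57, -1.88 and 2.05 in BA+DMSO, with BA+DMSO 2 lowest. Cthrc1, a secreted protein of remodelling arteries, was well above background on 1 DMSO array and all BA+DMSO arrays and read -3.77, -4.35 and -4.30 against 2.69, -1.95 and 0.88 (adjusted p = 0.00426). Tnc (tenascin C), a matrix protein of injured tissue, rose by 2.08, from -0.42, -0.42 and -0.07 to 1.57, 2.12 and 1.65, and the groups did not overlap. Thbs1 (thrombospondin 1), an activator of latent TGF-beta, rose by 2.11. Wisp1, a CCN family protein, rose by 2.46 and the hyaluronan receptor Cd44 by 1.33. Has1, a hyaluronan synthase, was higher by 3.21 and lost its call without DMSO 2 (0.0906) and DMSO 3 (0.063), and without BA+DMSO 1 its difference was 1.98. The other CCN members read otherwise. Cyr61, an early response gene, read 6.65, 6.89 and 6.48 against 4.84, 2.49 and 4.53 and fell by 2.72 log2 units, a call lost without DMSO 2 (0.0554), and Ctgf, a target of TGF-beta, differed by -0.11 (adjusted p = 0.837). Ogn, a small leucine-rich proteoglycan of the quiescent vessel wall, fell from 7.39, 7.44 and 7.31 to 5.67, 5.11 and 6.08. Fn1, Postn and Bgn showed differences of 0.37, 0.37 and 0.07 and were not called. The number called lower was 1 without DMSO 2, 2 without DMSO 1 or BA+DMSO 1 and 3 without DMSO 3, and the same-slide comparison gave 7 higher and 1 lower.

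Matrix proteases and their inhibitors gave 13 higher and 3 lower of 28 tested, with a median of 0.67 (0.44 with normexp, 0.43 in the same-slide comparison, 1.01 with the brightness covariate and 1.01 without BA+DMSO 2). The member with the largest rise was an inhibitor. Timp1, which blocks most matrix metalloproteinases, read 3.11, 2.61 and 2.5 in DMSO and 7.47, 5.95 and 6.94 in BA+DMSO (4.05 ± 0.34 SE, adjusted p = 0.000117). It was 16.6-fold higher, with every challenged array above every DMSO array. Among proteases, Adam12 rose by 2.56, Adam8 by 2.26, Mmp14, the membrane-type activator of Mmp2, by 1.21, and Ctss, an elastolytic cathepsin of macrophages, by 2.30. Plau (urokinase), which activates plasminogen, read -3.15, -3.88 and -3.32 against -1.33, -1.98 and -0.61 and rose by 2.14. Mmp3 (stromelysin 1) was higher by 1.85, a call lost without DMSO 2 (0.0599), DMSO 3 (0.0564) and BA+DMSO 1 (0.051). Mmp2 was higher by 0.91 (adjusted p = 0.0434), with overlapping groups and a call lost without DMSO 1 (0.0531), DMSO 2 (0.162), DMSO 3 (0.112), BA+DMSO 1 (0.144) and BA+DMSO 3 (0.0777), while Timp2 and Timp3 differed by -0.04 and 0.28 with no call. Timp4 fell by 2.39, a call lost without DMSO 1 (0.0597), DMSO 2 (0.0595), DMSO 3 (0.0666) and BA+DMSO 1 (0.0591). Mmp9, Mmp12 and Mmp13 were not well above background on all 3 arrays of any group and were not tested. The number called higher was 7 without DMSO 2 or BA+DMSO 1 and 8 without DMSO 3, and the number called lower was 0 without DMSO 1, DMSO 2 or DMSO 3 and 1 without BA+DMSO 1. The same-slide comparison called 6 higher, with Timp1 at 3.44 (adjusted p = 0.00151).

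In the contractile SMC list 15 of 38 members were called lower and 0 higher (1 without BA+DMSO 3), with a median of -0.82 (-0.44 with array weights and -0.42 without BA+DMSO 1). The called members included scaffolds of the actin cytoskeleton and the transcription factor of the programme. Synpo2, an actin-bundling protein of SMCs (chr3:122779459-122779518, mm9), read 6.13, 6.40 and 6.10 in DMSO and 2.70, 3.80 and 4.37 in BA+DMSO (-2.58 ± 0.34 SE, adjusted p = 0.000955). Lmod1, an actin nucleator, fell from 2.62, 2.73 and 2.67 to -0.06, 1.01 and 1.35 and Itga8, an integrin subunit of SMCs, from 7.95, 8.05 and 7.95 to 5.83, 6.12 and 7.29. No challenged array of these genes reached the DMSO range. Of the 2 dimmer probes of Synpo2, 1 was called and their differences were -2.02 and -0.90. Srf, the serum response factor that binds CArG boxes, fell from 3.75, 3.69 and 3.52 to 1.61, 1.79 and 2.61 (-1.66 ± 0.26 SE, adjusted p = 0.00232), while a dimmer probe of it differed by -0.58 with no call. Pdlim3 and Synm, which tie filaments to adhesion sites, fell by 1.38 and 0.97. Prkg1, the kinase through which nitric oxide relaxes SMCs, fell by 1.51, a call lost without DMSO 1 (0.0537), DMSO 2 (0.0668) and BA+DMSO 1 (0.0651).

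The 5 genes taken as defining SMCs did not pass the test. Acta2, SMC alpha-actin, read 9.75, 9.76 and 9.97 in DMSO and 9.84, 10.59 and 9.86 in BA+DMSO (0.27, adjusted p = 0.402), and Tagln 9.79, 9.83 and 9.90 and 10.05, 10.99 and 9.82 (0.45, adjusted p = 0.272). BA+DMSO 2 stood above all DMSO arrays in these genes. Myh11, the SMC myosin heavy chain, read 7.20, 7.25 and 7.25 against 5.75, 8.17 and 6.10, where BA+DMSO 1 and 3 were below DMSO and BA+DMSO 2 above it. Its difference was -0.56 (adjusted p = 0.437) over all arrays and -1.31 (adjusted p = 0.0012) without BA+DMSO 2. Myocd, the coactivator of Srf, went from an adjusted p of 0.232 to 0.0201 when that array was left out, and Cnn1 from 0.375 to 0.13. The scores of the list, medians over its members of the difference from the DMSO mean, were -1.51, -0.15 and -0.39 for BA+DMSO 1, 2 and 3. The number called lower was 7 without DMSO 1 or DMSO 2 and 8 without DMSO 3 or BA+DMSO 1. Against the rapamycin arrays of the same slide the median was -0.87 with 7 members lower, among them Synpo2 (-2.44, adjusted p = 0.00825).

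**Figure D3:**
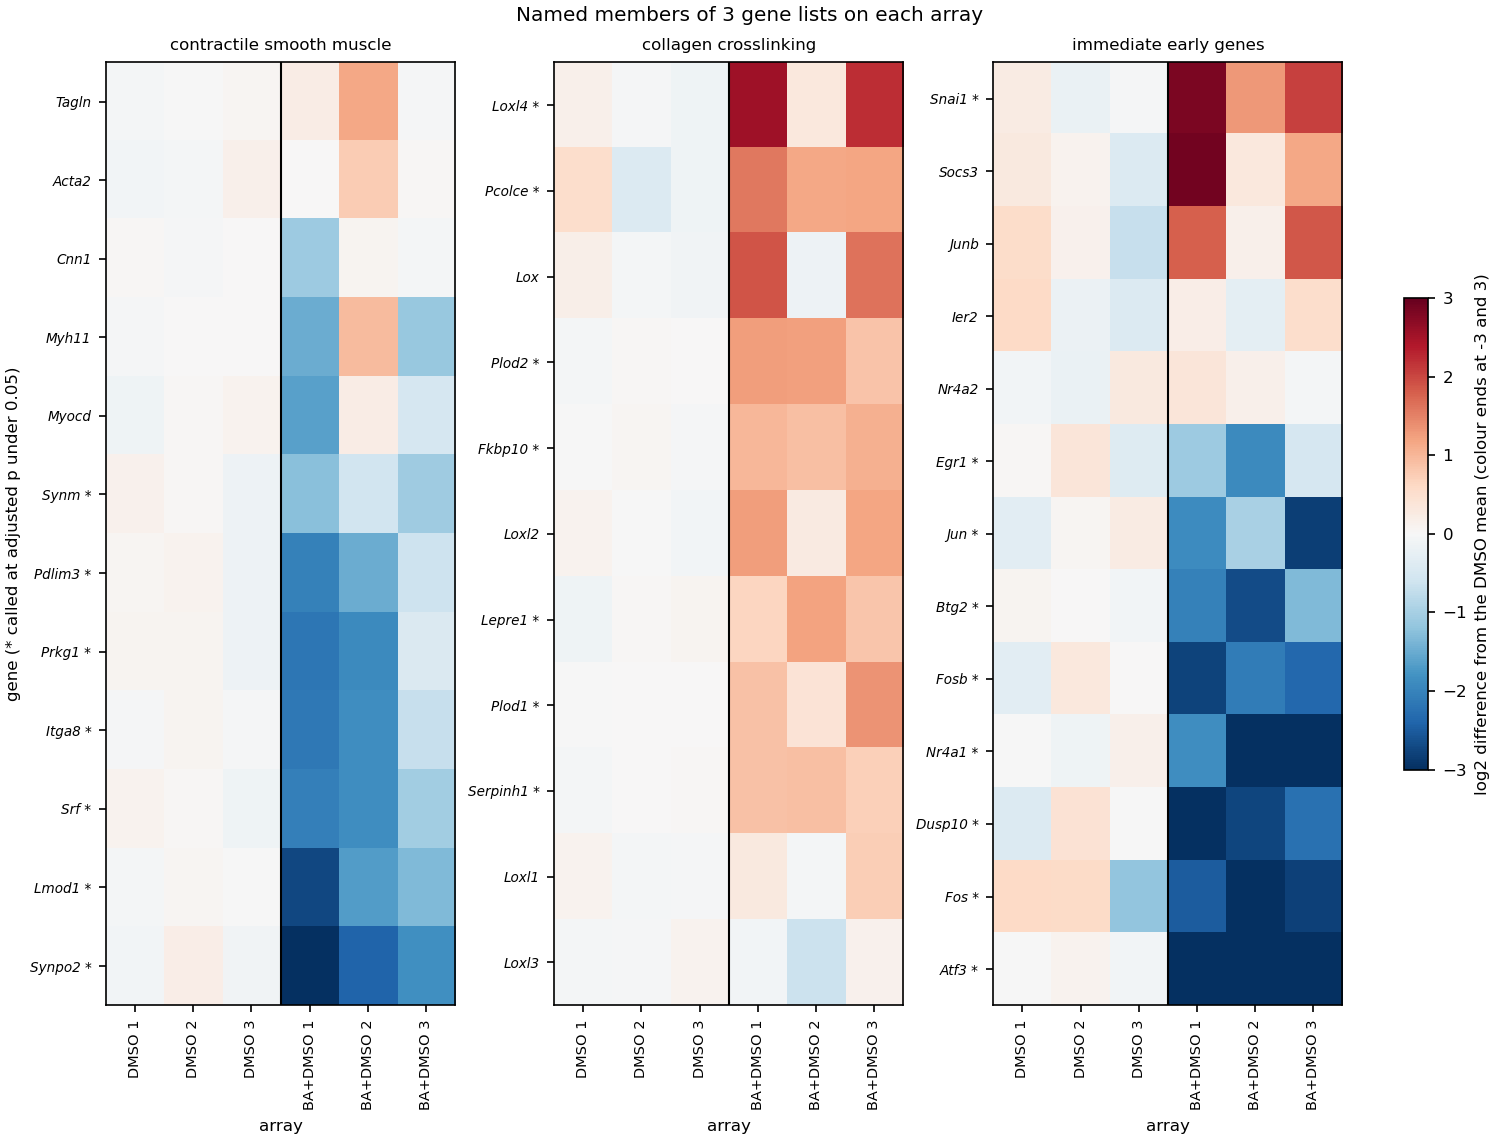
Heat maps of the difference of each array from the DMSO mean (colour, log2) for the members named in the text (rows) of the contractile smooth muscle, collagen crosslinking and immediate early gene lists in the 6 arrays (columns), with called members marked by an asterisk. BA+DMSO 2 lacks the fall of Myh11 and the rise of Lox that BA+DMSO 1 and 3 show, while all 3 challenged arrays are low for Atf3.

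Receptors and signalling genes of vasomotor tone were called lower in 10 and higher in 1 of 29 members with a median of -0.48 (-0.099 with normexp and -0.29 in the same-slide comparison). With normexp 3 members were called higher. Those called higher numbered 0 without DMSO 2, DMSO 3 or BA+DMSO 1, 2 without BA+DMSO 2 and 4 without BA+DMSO 3. Rgs5, which ends signals of Gq- and Gi-coupled receptors such as that of AngII, read 4.70, 5.27 and 4.83 in DMSO and 2.08, 1.58 and 3.38 in BA+DMSO (-2.58 ± 0.39 SE, adjusted p = 0.00192). Gucy1a3 and Gucy1b3, the subunits of the nitric oxide receptor guanylate cyclase, fell by 1.98 and 1.69, the former from 5.28, 5.43 and 5.17 to 2.62, 3.28 and 4.03. The groups were apart for each of the 3 genes. The alpha-adrenergic receptors Adra1d and Adra2a fell by 2.67 and 2.04. Adra1d was well above background on 2 of the BA+DMSO arrays, so the size of its fall is not exact. Agtr1a, the type 1 receptor of AngII, read -1.12, -1.35 and -2.08 against -2.26, -4.28 and -1.58, with BA+DMSO 3 inside the DMSO range and a difference of -1.19, adjusted p = 0.159. It was called without BA+DMSO 3 (adjusted p = 0.0267). Agtr1b and the converting enzyme Ace differed by -0.18 and 0.11 with no call, and Edn1 and its receptor Ednra by -0.48 and -0.16. Agtr2 and Agt were not tested. The number called lower was 5 without DMSO 3 and 6 without DMSO 1, DMSO 2 or BA+DMSO 1, and in the same-slide comparison it was 5.

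Ion channels and pumps were lower in 10 and higher in 1 of 25 tested (higher 0 without DMSO 1, DMSO 2, DMSO 3 or BA+DMSO 1 and 2 without BA+DMSO 3). Their median was -0.89 (-0.56 with normexp, -0.39 for probes well above background on all 6 arrays and -0.53 without BA+DMSO 1). Kcnma1, the pore of the large-conductance calcium-activated potassium channel that limits SMC contraction, read 2.21, 2.46 and 2.08 against 0.19, -0.20 and 1.53 (-1.75 ± 0.37 SE, adjusted p = 0.00989), and 1 of its 2 dimmer probes, at -1.17 and -0.70, was called. Kcnab1, a beta subunit of voltage-gated potassium channels, fell from 4.52, 4.85 and 4.62 to 1.32, 1.5 and 3.31. Atp2a2, the calcium pump of the sarcoplasmic reticulum, and Itpr1, its inositol trisphosphate-gated release channel, fell by 1.75 and 1.42, with BA+DMSO 3 nearest to the DMSO arrays for Kcnab1. A dimmer probe of Atp2a2 differed by -0.53 with no call. Ryr2, the ryanodine receptor, fell by 1.80, a call lost without DMSO 2 (0.0616) and BA+DMSO 1 (0.0586). The count of lower channels was 4 without DMSO 2, 5 without DMSO 3 and 6 without BA+DMSO 1, and the same-slide comparison gave 5 lower and 0 higher. Kcna5 and Cacna1c were not tested.

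Genes of mitosis had the largest median difference of the 44 lists. Of the 53 members of the mitosis list 37 could be tested, some of them only because they were bright in another group than DMSO. Of those 37, 32 were called higher and 1 lower (0 without DMSO 2) and the median difference was 3.60 (2.34 with normexp). A filter on all 6 arrays, which leaves out members such as Cdk1, gave 23 higher and 1 lower with a median of 3.39. It called 11.9% of all genes higher and 12.3% lower. Cdk1, the kinase that drives mitotic entry, was well above background on no DMSO array and read -5.09, -6.21 and -5.98 there against 0.59, -2.21 and -0.08 in BA+DMSO. Its rise was at least 11.3-fold (20.0-fold without BA+DMSO 2). Ccnb1, its cyclin, read -3.37, -3.53 and -4.0 and 2.38, -0.15 and 1.65 (adjusted p = 0.00037). It was not well above background on all 6 arrays, so no exact size of its rise is given. Cdk1 and Ccnb1 both hold CCAAT boxes in the promoter stretches shown. Every challenged array lay above every DMSO array, with BA+DMSO 1 highest and BA+DMSO 2 lowest. Mki67, the proliferation antigen Ki67, read -1.08, -0.90 and -0.80 against 4.35, 2.35 and 3.45 by its brightest probe (4.31 ± 0.39 SE, adjusted p = 0.000178), and a further probe rose by 4.69. Top2a, the topoisomerase that separates chromosomes, was measured on no DMSO and 2 BA+DMSO arrays, and its rise was at least 14.9-fold (9.19-fold without BA+DMSO 1 and 32.6-fold without BA+DMSO 2). Birc5 (survivin), a subunit of the chromosomal passenger complex, went from -0.72, -0.45 and -0.66 to 4.74, 2.37 and 4.02 and Ccna2, the cyclin of S phase and mitosis, from -2.52, -2.15 and -1.75 to 3.10, 0.73 and 2.32. In Mki67, Birc5 and Ccna2 BA+DMSO 1 was again the highest and BA+DMSO 2 the lowest challenged array. The mitotic kinases Aurka and Plk1 rose by 3.88 and 3.39, the kinase Melk by at least 17-fold, and Foxm1, a transcription factor of mitotic genes, by 3.33. Cdc20 and Ube2c, which drive protein destruction at anaphase, rose by 3.39 and 3.59. The exception in direction was Pttg1 (securin), which fell by 1.16, a call lost without DMSO 2 (0.0525). Leaving out any 1 array gave 30 to 35 members higher. The same-slide median was 4.18 with 30 members higher, and on those rapamycin arrays Mki67 read -1.85 and -1.91.

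DNA replication genes were called higher in 25 and lower in 0 of 44 members (lower 1 without BA+DMSO 3), with a median of 1.17. The rises were uneven within the machinery. Asf1b, a histone chaperone of the replication fork, read -3.20, -3.14 and -3.01 in DMSO and 2.02, -0.57 and 1.52 in BA+DMSO (4.11 ± 0.51 SE, adjusted p = 0.000715), and Tk1, thymidine kinase, -1.58, -1.38 and -1.63 and 3.11, 1.14 and 2.56 (3.80 ± 0.41 SE, adjusted p = 0.00037). Uhrf1, which carries DNA methylation through replication, went from -1.47, -1.46 and -1.05 to 3.35, 1.38 and 2.44 and Rrm2, the regulated subunit of ribonucleotide reductase, from -0.57, -0.81 and -0.93 to 3.37, 0.95 and 2.84. In each of these genes all challenged arrays exceeded all DMSO arrays. Of the helicase subunits, Mcm5 rose by 2.63 and Mcm7 by 1.5, and Mcm2 was higher by 1.64 with the call lost without DMSO 2 (0.0665) and BA+DMSO 1 (0.0668), while Mcm4 and Mcm6 differed by 0.39 and 0.39 with no call. The chromatin assembly subunits Chaf1a and Chaf1b rose by 2.12 and 3.03, the polymerase subunit Pole by 2.81 and the loading factor Cdt1 by 2.61. Pcna, the sliding clamp, read 3.19, 3.13 and 2.91 against 4.11, 2.15 and 4.02, with BA+DMSO 2 below the DMSO arrays and the other 2 above, and its adjusted p was 0.594 over all arrays and 0.00573 without that array. The primase and polymerase alpha subunits Prim1 and Pola1 differed by -0.01 and -0.51 and were not called. The number higher was 16 without DMSO 2 or BA+DMSO 1, and 22 were higher in the same-slide comparison.

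Regulators of G1 moved in both directions, with 9 higher and 6 lower of 34. Ccne1, the cyclin of S phase entry, read -2.49, -2.86 and -2.77 against 1.81, -0.31 and 1.40 (3.67 ± 0.42 SE, adjusted p = 0.000528), and Ccnd1, the cyclin induced by growth factors, 1.34, 0.88 and 1.21 against 3.58, 2.56 and 2.91 (1.88 ± 0.25 SE, adjusted p = 0.000906). The transcription factors E2f1 and E2f2 rose by 2.24 and 2.2. All 4 were separated between the groups. Among inhibitors the directions differed. Cdkn2a, whose transcripts code for p16 and p19ARF, was well above background on no DMSO array and at least 4.53-fold higher, Cdkn1b (p27) fell by 0.70 (a dimmer probe differed by -0.18 with no call), and Cdkn1a (p21) differed by 0.85 with adjusted p = 0.125. Mxd3, a partner of Max that peaks in S phase, was at least 12.4-fold higher, and the antiproliferative Btg2 fell by 2.01, from 2.95, 2.89 and 2.79 to 0.86, 0.20 and 1.55. The count of higher members was 15 without BA+DMSO 2 and that of lower members 2 without DMSO 2 and 3 without DMSO 3 or BA+DMSO 1, and the same-slide comparison gave 6 higher and 3 lower.

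Cytokines and chemokines were called higher in 20 and lower in 1 of the 28 that could be tested out of 50, with a median of 1.48 (lower 0 without DMSO 1, DMSO 2, DMSO 3 or BA+DMSO 1). Beside Ccl2 and Ccl7, the monocyte attractant Ccl12 rose from -1.05, -2.96 and -2.2 to 3.36, -0.02 and 2.5 (4.01 ± 0.75 SE, adjusted p = 0.0049) and Ccl8 by 3.36. Ccl6 and Ccl9, made by myeloid cells, rose from 1.96, 1.32 and 1.55 to 5.18, 4.34 and 4.34 and from 1.71, 0.91 and 0.96 to 4.92, 3.71 and 4.0. No challenged array fell into the DMSO range for these. Il6, the cytokine of the acute phase response (promoter with an NF-kB site, above), was well above background on no DMSO array and on 2 BA+DMSO arrays and read 2.84, -3.83 and -0.12 there against -6.20, -6.03 and -4.90. Its rise was at least 13-fold (4.25-fold without BA+DMSO 1 and 43.0-fold without BA+DMSO 2), with adjusted p = 0.0135, and the call was lost without DMSO 2 (0.056). Lif, of the same family, was at least 2.90-fold (1.64-fold without BA+DMSO 2 and 6.61-fold without BA+DMSO 3) higher by 2 BA+DMSO arrays, a call lost without DMSO 1 (0.0939), DMSO 2 (0.156), DMSO 3 (0.079), BA+DMSO 1 (0.148) and BA+DMSO 2 (0.118). Cxcl14 was at least 9.28-fold higher, and the neutrophil attractant Cxcl1 rose by 1.62, from -2.44, -2.84 and -3.25 to -1.27, -1.25 and -1.13. Cxcl16 and Cx3cl1, chemokines that also exist as membrane proteins, rose by 1.37 and 1.01 and Ccl5, an attractant of T cells, by 1.98. Cxcl12 and Csf1, the growth factor of macrophages, were not called over all arrays (0.86, adjusted p = 0.263 and 0.53, adjusted p = 0.0795) and were called without BA+DMSO 2 (Cxcl12, 0.00361) or BA+DMSO 3 (Csf1, 0.0225). Il1b, Tnf, Cxcl5 and Cxcl10 were not well above background on all 3 arrays of any group and were not tested. The number higher was 12 without DMSO 2 and 13 without DMSO 3 or BA+DMSO 1. In the same-slide comparison 11 were higher, Ccl2 by 4.39 (adjusted p = 0.0127) and Ccl7 by 4.52 (0.0117).

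Receptors for these ligands were called higher in 13 and lower in 1 of 26 (lower 0 without DMSO 1, DMSO 2, DMSO 3 or BA+DMSO 1 and 2 without BA+DMSO 3). Ccr2, the receptor of Ccl2, Ccl7 and Ccl12 on monocytes, was well above background on 1 DMSO array, so no exact size of its rise is given. It read -2.78, -4.57 and -3.58 against 1.03, -1.48 and -1.36 (adjusted p = 0.00782). The groups did not overlap in Ccr2, and the fractalkine receptor Cx3cr1 rose by 2.22. Csf1r, the receptor of Csf1, went from 4.66, 3.99 and 3.99 to 6.45, 5.41 and 5.69, and Csf2rb, the beta chain shared by receptors of granulocyte-macrophage growth factors, rose by 2.37. Dimmer probes of both differed less, with no call for 1 of Csf1r at 0.36 and 1 of Csf2rb at 0.85. Of the Il6 family, the oncostatin M receptor Osmr rose by 1.18 and Il6ra was higher by 1.08 (adjusted p = 0.0424), lost without DMSO 1 (0.118), DMSO 2 (0.128), DMSO 3 (0.0761), BA+DMSO 1 (0.13) and BA+DMSO 2 (0.0933). The shared subunit Il6st differed by -0.34 with no call. Tnfrsf11b (osteoprotegerin), a decoy receptor made by SMCs, rose by 2.5, from 1.02, 0.79 and 0.67 to 4.39, 1.91 and 3.68. In the same-slide comparison 7 members were higher and 1 lower.

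Macrophage and monocyte markers were, like the chemokines, higher in BA+DMSO, with 24 of 26 higher, 0 lower and a median of 2.40. The summed linear level of the list, in units of the 75th percentile signal, was 39.2 to 79.4 in DMSO and 130 to 336 in BA+DMSO. Emr1, coding for the macrophage antigen F4/80, read 0.64, -0.20 and -0.50 against 2.95, 1.62 and 2.56 and Cd68, a lysosomal protein of macrophages, 1.02, 0.16 and 0.21 against 3.84, 1.93 and 3.53 (2.63 ± 0.42 SE, adjusted p = 0.00232). Neither overlapped. Aif1 (Iba1) rose from 1.29, 0.89 and 0.60 to 3.41, 3.08 and 3.25, Trem2 by 2.68, Tyrobp by 2.54 and Cd14, the coreceptor for lipopolysaccharide, by 1.79. Lyz2 was higher by 2.40, a call lost without DMSO 2 (0.115), DMSO 3 (0.0916) and BA+DMSO 1 (0.103), and its probe may bind the near-identical Lyz1. The scavenger receptor Msr1 was at least 5.18-fold higher by 2 BA+DMSO arrays, and Mrc1, a marker of resident macrophages, was higher by 1.83, a call lost without DMSO 2 (0.0903), DMSO 3 (0.1) and BA+DMSO 1 (0.0867). On the rapamycin arrays of the challenged slide Cd68 read 0.78 and 0.97, and the list had a same-slide median of 1.80 with 13 members higher. What part these cells had in the chemokine, receptor, protease and complement differences was not tested.

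Neutrophil markers were called higher in 3 of 7 tested (2 in the same-slide comparison, summed level 207 to 258 in DMSO and 157 to 604 in BA+DMSO). S100a8 and S100a9, the abundant calprotectin subunits, read -2.91, -0.65 and 0.04 and -0.99, 0.92 and 1.71 in BA+DMSO against -2.61, -3.10 and -3.03 and -1.07, -1.04 and -1.16 in DMSO. Their differences of 1.74 and 1.64 had adjusted p = 0.0628 and 0.101, and BA+DMSO 1 lay at the DMSO level. The largest rise of the list was that of Lcn2 (2.59, adjusted p = 0.00048), given below with the list of mesothelium and neighbouring organs. Mpo was not tested. Among T and natural killer cell genes 3 were higher and 1 lower of 13 (higher 1 without DMSO 1, DMSO 2 or BA+DMSO 1 and 5 without BA+DMSO 3, lower 0 without DMSO 2, DMSO 3 or BA+DMSO 3 and 2 without BA+DMSO 2, and 2 and 0 in the same-slide comparison), and among B cell genes limma called 0 of 6 (1 higher and 0 lower at an unadjusted p under 0.05, and 1 without BA+DMSO 3, called higher). The adhesion molecule Cd2 of T cells rose by 2.09, and Cd3e was higher by 0.92, a call lost without DMSO 1 (0.0638), DMSO 2 (0.103) and BA+DMSO 1 (0.0594). Of mast cell and dendritic cell genes 5 of 12 were higher. These were class II antigen presentation genes and Itgax, with Cd74, the invariant chain, at 1.45 and H2-Ab1 at 1.61. In the same-slide comparison 1 of that list was higher.

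Adhesion molecules gave 7 higher and 0 lower of 18. On the vessel side, Vcam1, which binds monocyte integrins, read 2.72, 2.67 and 2.77 against 4.57, 3.32 and 4.54 (1.42 ± 0.28 SE, adjusted p = 0.0071) and Selp (P-selectin) rose by 1.41. Icam1 differed by 0.91 with adjusted p = 0.16. On the leukocyte side, Itgb2, the beta chain of the leukocyte integrins, rose from -1.97, -2.58 and -2.45 to 0.85, -0.26 and 0.40 and Selplg, the ligand of P-selectin, by 2.18. The challenged arrays were all above DMSO for both. Itgam (CD11b) had a difference of 1.13, adjusted p = 0.0906, and passed without BA+DMSO 3 (0.00193), and its dimmer probe was called at 1.86. The number higher was 11 without BA+DMSO 3, the number lower 2 without BA+DMSO 3, and the same-slide comparison gave 4.

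**Figure D4:**
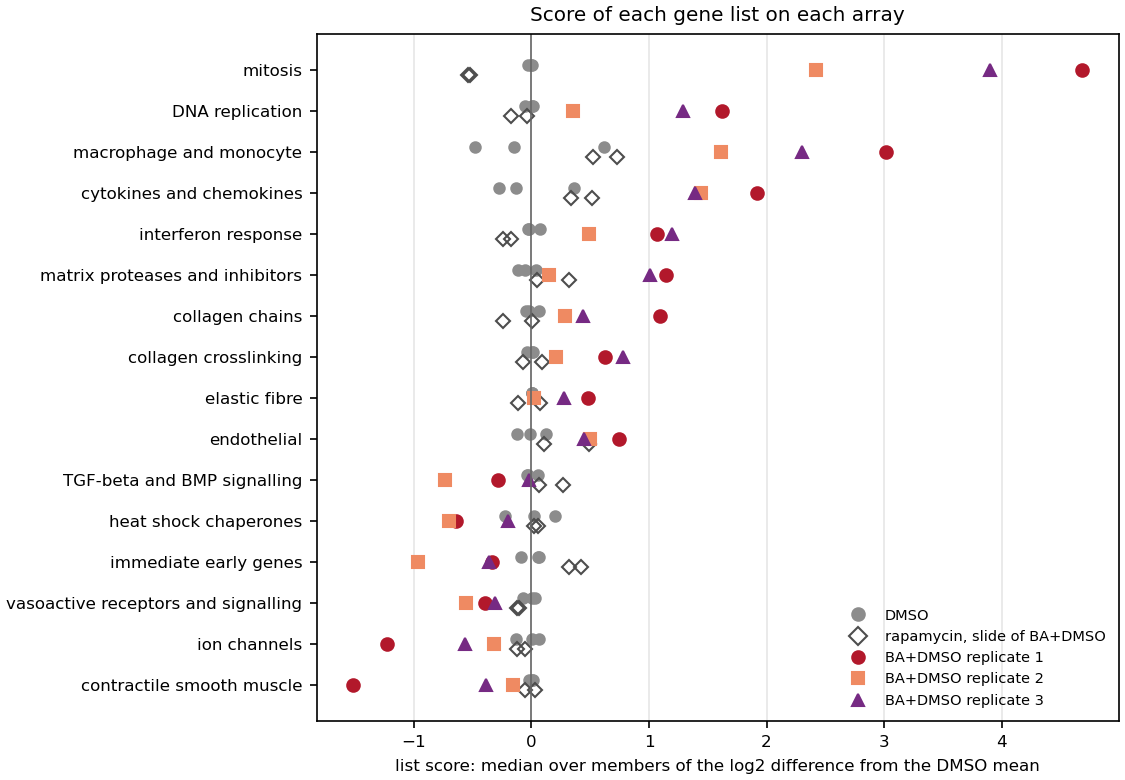
Score of each array (x axis, log2, median over the members of the difference from the DMSO mean) for 16 gene lists (y axis) in the DMSO arrays, the 2 rapamycin arrays on the slide of the challenged arrays and the BA+DMSO arrays 1 to 3. The mitosis scores of BA+DMSO 1, 2 and 3 were 4.69, 2.42 and 3.90, and those of contractile smooth muscle -1.51, -0.15 and -0.39.

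Immediate early genes, which respond within minutes to stimuli and to tissue handling, were lower in 13 and higher in 2 of 31 members, with a median of -0.68 (-0.42 with the brightness covariate and -0.35 without BA+DMSO 2). Beside Atf3, the orphan nuclear receptor Nr4a1 read 5.99, 5.86 and 6.15 in DMSO and 4.13, 2.60 and 3.02 in BA+DMSO (-2.75 ± 0.37 SE, adjusted p = 0.00109) and Fos, of the AP-1 complex, 2.85, 2.85 and 1.09 and -0.23, -2.62 and -0.55 (-3.39 ± 0.62 SE, adjusted p = 0.00451), well above background on 2 of the BA+DMSO arrays. Fosb fell by 2.41 and the phosphatase Dusp10 was lower (adjusted p = 0.00496), with 1 BA+DMSO array well above background for the latter. The size of the fall is not exact for Fos and Dusp10, as dim challenged arrays limit it. The groups did not overlap for Nr4a1, Fos, Fosb or Dusp10. Jun fell by 1.90, a call lost without DMSO 2 (0.0574) and DMSO 3 (0.0528), and Egr1 by 1.17, lost without DMSO 1 (0.0697), DMSO 2 (0.109) and BA+DMSO 1 (0.0615). The list was not uniform. Snai1, a repressor of epithelial genes, rose by 2.06, from -1.65, -2.08 and -1.92 to 0.93, -0.59 and 0.18, Junb read -3.29, -3.73 and -4.54 against -2.07, -3.71 and -1.98 and was called without BA+DMSO 2 only (adjusted p = 0.0804 and 0.0076), and Socs3, a target of Il6 signalling, did likewise (0.0915 and 0.0199). Ier2 and Nr4a2 differed by 0.15 and 0.15 with no call. The number lower was 7 without DMSO 2 and 8 without BA+DMSO 1, the number higher was 1 without DMSO 1, DMSO 2, DMSO 3, BA+DMSO 1 or BA+DMSO 3 and 5 without BA+DMSO 2, and 11 were lower in the same-slide comparison, with Fos at -3.24 (adjusted p = 0.0252) and Nr4a1 at -1.95 (0.0263).

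Heat shock chaperones were lower in 8 and higher in 0 of 25 (higher 1 without BA+DMSO 1), with a median of -0.51 (-0.22 with the slide as a term and -0.33 with array weights). Hspa1a, the inducible Hsp70, whose promoter stretch with a heat shock element is shown above, read 3.30, 4.33 and 4.73 in DMSO and 0.91, -0.35 and 0.47 in BA+DMSO (-3.78 ± 0.69 SE, adjusted p = 0.0045). Its probe may also bind Hspa1b, a near-identical copy. On the rapamycin arrays of the challenged slide it read 3.80 and 3.46. Hspa2 fell from 3.48, 3.62 and 3.56 to 1.18, 0.98 and 2.13, and Dnajb1, the Hsp40 partner, fell by 1.59, a call lost without DMSO 2 (0.0786), DMSO 3 (0.0848) and BA+DMSO 1 (0.0593). The constitutive Hspa8 and Hsp90ab1 differed by 0.21 and -0.45 with no call. The number lower was 2 without DMSO 2, DMSO 3 or BA+DMSO 1 and 5 without BA+DMSO 2, and in the same-slide comparison 2 were lower. Krüppel-like factors were lower in 3 and higher in 1 of 13. The number lower was 1 without DMSO 2 and 5 without BA+DMSO 2 and the number higher 0 without DMSO 1, DMSO 2, DMSO 3 or BA+DMSO 1, and the same-slide comparison gave 3 lower and 0 higher. Klf15, a regulator of SMC and metabolic genes, fell from 0.58, 0.47 and 0.78 to -2.40, -1.25 and -1.35, and Klf6 fell by 1.0, a call lost without DMSO 2 (0.0652). Klf4, which represses contractile SMC genes, read 2.34, 2.01 and 2.16 against 2.70, 1.52 and 1.88 (-0.13, adjusted p = 0.79), and its groups overlapped.

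Interferon response genes were higher in 16 and lower in 0 of 34 members, with a median of 0.98. Oasl1, an oligoadenylate synthetase-like protein, read -2.24, -1.96 and -1.58 against 0.18, 0.19 and 0.86 (2.34 ± 0.33 SE, adjusted p = 0.00135) and Zbp1, a sensor of nucleic acids, rose by 2.58. Isg15, the ubiquitin-like modifier whose promoter holds ISREs, rose from 1.78, 1.51 and 1.75 to 3.75, 2.49 and 4.21. Every challenged array was above the DMSO arrays for Isg15. Oas1a rose by 2.21, Oasl2 by 1.51 and Bst2 (tetherin) by 0.99. Rsad2 (viperin) was higher by 2.14 and Irf7, the amplifier of type I interferon, by 2.01, with calls lost without DMSO 2 (0.0565) for Rsad2 and without DMSO 2 (0.0574) and DMSO 3 (0.055) for Irf7. Ifit3 was called without BA+DMSO 2 only (adjusted p = 0.101 and 0.0227). Gbp2, Iigp1 and Irf1, which respond strongly to interferon gamma, differed by -0.09, 0.01 and 0.17 with no call. The number higher was 6 without DMSO 2, 10 without DMSO 3 or BA+DMSO 1 and 25 without BA+DMSO 2, and the same-slide comparison gave 14 with a median of 1.17.

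Complement genes were higher in 9 and lower in 1 of 20 (lower 0 without DMSO 1, DMSO 2, DMSO 3 or BA+DMSO 1 and 2 without BA+DMSO 3). C1qb and C1qc, chains of the initiator C1q that macrophages make, rose by 2.55 and 1.99, and C5ar1, the receptor of the anaphylatoxin C5a, by 2.69. The central component C3 read 5.37, 5.02 and 5.05 against 6.68, 6.93 and 6.10, and Cfb, of the alternative pathway, rose by 1.92. The rapamycin arrays of the challenged slide read 6.15 and 6.07 for C3, and the same-slide comparison called 2 members higher. The median of the list was 0.97 (0.30 in the same-slide comparison). Of coagulation and fibrinolysis genes 6 of 17 were higher. Procr, the endothelial protein C receptor, rose by 1.15, and F10 and the tissue plasminogen activator Plat were not called over all arrays (1.02, adjusted p = 0.389 and 0.76, adjusted p = 0.248), though a dimmer probe of F10 was called at 3.10. Tissue factor (F3) and thrombomodulin (Thbd) differed by 0.53 and 0.14 with no call. The number higher was 2 without DMSO 2 and 3 without DMSO 3 or BA+DMSO 1. In the same-slide comparison 2 of that list were higher, and its median was 0.58 (0.25 in the same-slide comparison, 1.06 with the brightness covariate and 1.02 without BA+DMSO 2).

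Genes of TGF-beta and BMP signalling, which controls matrix synthesis and SMC state, gave 7 higher and 7 lower of 32, with a median of -0.28 (-0.48 in the same-slide comparison, -0.047 with the brightness covariate, 0.0086 with array weights and -0.11 without BA+DMSO 2). Fst (follistatin), which binds activins, read 0.23, 0.79 and 0.98 against 3.24, 2.06 and 2.56 (1.96 ± 0.32 SE, adjusted p = 0.00251), and Bmper, a modulator of BMPs, was higher by 1.92, a call lost without DMSO 2 (0.0513). Tgfbr3 (betaglycan) fell from 2.94, 3.04 and 2.79 to 1.79, 1.6 and 1.69 with no overlap and Bmpr1a by 1.55. Of the ligands, Tgfb1 was higher by 0.81 (adjusted p = 0.0328), lost without DMSO 1 (0.0691), DMSO 2 (0.103), DMSO 3 (0.101), BA+DMSO 1 (0.0881) and BA+DMSO 3 (0.0509), Tgfb3 fell by 0.66 (0.0474), lost without DMSO 1 (0.138), DMSO 2 (0.134), DMSO 3 (0.0897), BA+DMSO 1 (0.123) and BA+DMSO 2 (0.0805), and Tgfb2 differed by -0.09 with no call. Tgfbr1 was called without BA+DMSO 3 only (0.00948), and Tgfbr2 read 4.27, 4.30 and 4.01 against 4.19, 3.34 and 3.94 (-0.37, adjusted p = 0.243). Gdf6, a BMP ligand, rose by 2.07. The numbers higher were 2 without DMSO 2, 3 without DMSO 1 or BA+DMSO 1 and 4 without DMSO 3, and those lower 3 without DMSO 2 or BA+DMSO 1, 4 without DMSO 1, DMSO 3 or BA+DMSO 2 and 14 without BA+DMSO 3. In the same-slide comparison 2 were higher and 3 lower.

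Growth factors and their receptors gave 9 higher and 5 lower of 33, with a median of 0.20 (0.088 with normexp, -0.010 in the same-slide comparison, 0.32 with the brightness covariate, 0.50 with array weights, 0.080 without DMSO 3, 0.37 without BA+DMSO 2 and 0.053 without BA+DMSO 3). Igf1, a growth and survival factor of SMCs, read 1.88, 0.97 and 1.36 in DMSO and 5.51, 4.16 and 4.64 in BA+DMSO (3.36 ± 0.32 SE, adjusted p = 0.000219), and Igfbp2, a carrier of Igf1, 1.33, 0.63 and 0.71 and 4.17, 3.81 and 5.33 (3.55 ± 0.39 SE, adjusted p = 0.000404). The rapamycin arrays of the challenged slide read 1.81 and 1.77 for Igf1 and 0.81 and 0.25 for Igfbp2. Fgf2 rose by 1.34, and the neurotrophin Ntf3 fell by 1.59. Among platelet-derived growth factors Pdgfb was higher by 1.0, a call lost without DMSO 2 (0.0612), DMSO 3 (0.0774) and BA+DMSO 1 (0.0566), Pdgfa differed by 0.63, adjusted p = 0.0554 (its dimmer probe was called at 0.68), and the receptor Pdgfrb differed by -0.28 with no call. The number higher was 5 without DMSO 2 or DMSO 3 and the number lower 1 without DMSO 2, DMSO 3 or BA+DMSO 1, 2 without DMSO 1 and 9 without BA+DMSO 3, and the same-slide comparison called 3 higher and 2 lower.

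The labelled tissue was checked by markers of the cells it could hold. SMC markers were bright in both groups, with Myh11 and Acta2 at the levels given above. The endothelial list gave 6 higher of 23 (1 without DMSO 1, 2 without DMSO 2 or DMSO 3 and 3 without BA+DMSO 1, and 1 in the same-slide comparison, summed level 235 to 282 in DMSO and 316 to 413 in BA+DMSO). Of its members 21 differed upward, with a median of 0.54 (0.32 with normexp and 0.31 in the same-slide comparison). Pecam1 and Tek, which are among the 6 genes taken as defining the cell type, differed by -0.28 and -0.28 with no call. They were the only tested members that did not differ upward. The others of the 6, Cdh5, Kdr, Tie1 and Vwf, differed upward. The adventitial fibroblast list gave 5 higher and 0 lower of 19 (higher 9 without BA+DMSO 2, lower 1 without BA+DMSO 2, and 3 and 1 in the same-slide comparison, summed level 1184 to 1582 and 1411 to 2486). Thy1 and Pdpn, surface proteins of activated fibroblasts, rose by 2.16 and 1.95, and Pdgfra and Dpt differed by 0.10 and 0.58 with no call. The list of mesothelium and neighbouring organs gave 7 higher of the 10 tested out of 20 (1 without DMSO 2 and 2 without DMSO 3, BA+DMSO 1 or BA+DMSO 2, and 1 in the same-slide comparison, summed 13.3 to 24.1 and 23.2 to 33.6). Of these Lcn2, which injured cells of many kinds also make, rose by 2.59, and Msln (mesothelin) was higher by 2.83, lost without DMSO 2 (0.0807), DMSO 3 (0.104), BA+DMSO 1 (0.0817) and BA+DMSO 2 (0.0689). The liver genes Alb and Apoa1, the kidney gene Umod and the adrenal genes Cyp11b1, Star and Cyp11a1 were not well above background on all 3 arrays of any group.

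Erythroid and platelet genes gave 5 higher of 10 (1 without DMSO 2 or BA+DMSO 1 and 3 without DMSO 1), with summed levels of 24.9 to 96 in DMSO and 133 to 263 in BA+DMSO, and the same-slide comparison called 1 of them. Hba-a1, a globin with near-identical copies, read 5.50, 3.63 and 5.88 against 6.59, 6.31 and 7.24, a difference of 1.71 (adjusted p = 0.0401) whose call was lost without DMSO 1 (0.0563), DMSO 2 (0.119), BA+DMSO 1 (0.0921) and BA+DMSO 3 (0.0725) and which was 1.02 without DMSO 2. Alas2, of erythroid haem synthesis, rose by 2.45. The rapamycin arrays of the challenged slide read 7.0 and 6.68 for Hba-a1, within the range of the challenged arrays, so that the same-slide difference was -0.13. Adipocyte genes gave 2 higher and 4 lower of 20 (summed 213 to 223 and 161 to 368). Those higher numbered 1 without DMSO 2 or BA+DMSO 1 and 6 without BA+DMSO 3, the number lower 1 without DMSO 1, DMSO 2, DMSO 3 or BA+DMSO 1, and the same-slide comparison gave 0 higher and 1 lower. Of the 20 tested members 13 differed upward, most of them with no call. The median of the list was 1.06 (0.53 with the brightness covariate, 0.62 with array weights, 0.56 without BA+DMSO 2 and 1.596 without BA+DMSO 3). Ucp1, the uncoupling protein of brown fat, was well above background on no DMSO array and at least 6.47-fold (11.4-fold without BA+DMSO 3) higher, a call lost without DMSO 2 (0.0582) and BA+DMSO 1 (0.0557), and Adipoq differed by 2.08, adjusted p = 0.149. The glucose transporter Slc2a4 fell by 1.58. The other members called lower were Plin4, a coat protein of lipid droplets (-1.41), Prdm16, a transcription factor of brown fat (-1.12), and Acsl1, an acyl-CoA synthetase (-0.80), each of whose calls was lost without DMSO 1, 2 or 3 or BA+DMSO 1, and that of Acsl1 also without BA+DMSO 2 (adjusted p up to 0.0934, 0.0978 and 0.125). Nerve and Schwann cell genes gave 5 higher and 1 lower of 15 (summed 117 to 146 and 124 to 426, higher 1 in the same-slide comparison, lower 0 without DMSO 1, DMSO 2 or BA+DMSO 1 and 2 without BA+DMSO 3), with Mbp at 1.65 and Sox10, which defines Schwann cells, at 0.05, adjusted p = 0.946. Striated muscle genes gave 1 higher and 3 lower of 17 (summed 76.8 to 92.4 and 23.7 to 71.2), and Myh7 fell by 1.72. The number lower was 5 without BA+DMSO 3 and 6 without BA+DMSO 2 and the number higher 0 without DMSO 1, DMSO 2 or BA+DMSO 1 and 2 without BA+DMSO 3, and the same-slide comparison gave 0 lower. The part that the cell content of the dissected piece had in the differences of the other groups was not tested.

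**Figure D5:**
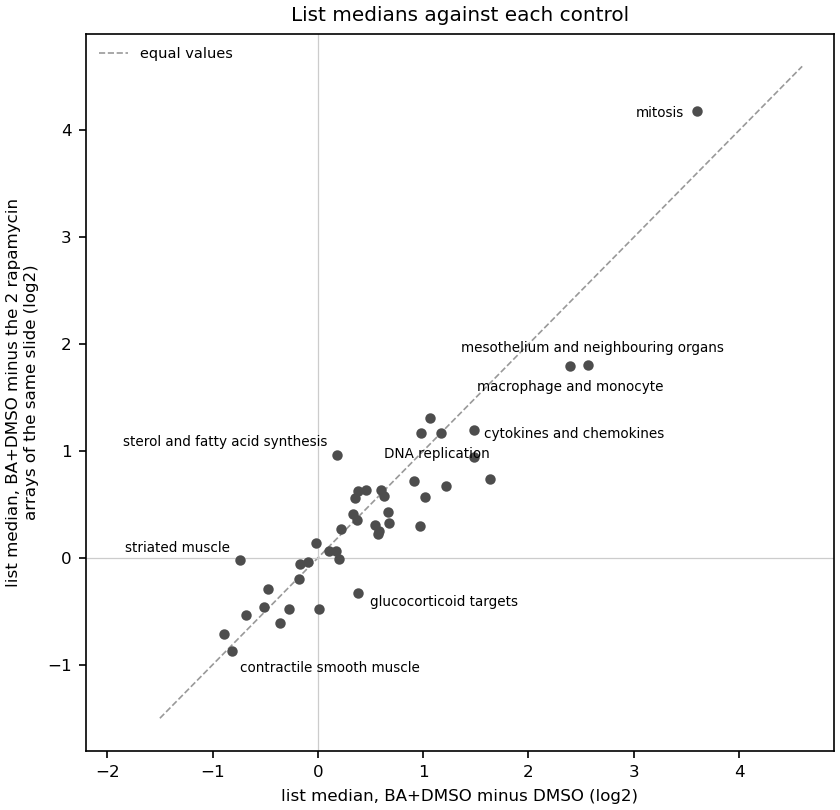
Median difference of each of the 44 gene lists against the DMSO arrays (x axis, log2) and against the 2 rapamycin arrays on the slide of the challenged arrays (y axis, log2), with the dashed line at equal values. Mitosis stands at 3.60 and 4.18, contractile smooth muscle at -0.82 and -0.87 and sterol synthesis at 0.19 and 0.97.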

How the data were processed

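Total RNA of single aortas was labelled with 1 dye and hybridised to Agilent arrays of 62976 spots. Per the file headers, the authors extracted the intensity of each spot with Feature Extraction 10.7.1.1 (the submitters' processing notes name 9.5.1.1), which subtracts background and removes spatial trends, and placed the probes on mm9. The deposited matrix of intensity values has identical quartiles in every column, so the authors had quantile-normalized it, and no source used here states this step.

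Here 3671 control spots and outlier spots were left out, spots of a probe were averaged, and the log2 processed signal minus the 75th percentile of the array was used. Of 55681 probes 6 without a value on every array were dropped, and 27801 were tested, namely those where at least 0.5 of spots were well above background on all 3 arrays of a group. limma 3.58.1 (R 4.3.3) fitted 1 mean per group to all 12 arrays (8 residual and 3.016 prior degrees of freedom), with two-sided tests and Benjamini-Hochberg adjustment, and was tested on simulated data. The study's own rule was a p under 0.01, taken here as unadjusted, and a fold above 4 or below 0.25. A gene of a list stands by its brightest tested probe. Of 1195 genes in 44 lists, 1026 were tested, 164 were on the array but too dim and 5 matched no probe. Symbols are those of the files, and 17558 tested probes matched a RefSeq accession. Promoter sequences from RefSeq matched 764 of the tested list genes. The genes named were the 12 largest rises and falls measured on all 6 arrays, the 6 largest bounds in each direction, fixed members of each list and the 3 largest called members of it, with others named to describe a group, and some genes that this rule takes are not reported here. The members and lists were chosen with earlier results of these data known. The alternatives were quantile normalization, a percentile over detected probes, normexp with an offset of 50, the deposited matrix, no filter or a filter on all 6 arrays, a fit of 6 arrays, the slide as a term, the same-slide comparison, array brightness as a covariate, array weights, a variance trend and each array left out. Python 3.11.15 with pandas 2.3.3, numpy 2.4.6 and matplotlib 3.10.9 made the summaries and figures. The number of arrays limits the precision.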

Additional observations from a re-analysis of the deposited data

How the results depend on the processing

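No paired analysis was possible because the 2 groups compared share no replicate number in their titles. Of the 27801 tested probes 5697 were called. The count was 1244 with only the 6 arrays of the groups compared, 15 with the slide as a term, 2550 against the rapamycin arrays of the same slide and 112 with array weights, whose estimation did not converge. With the slide as a term, 3026 probes had an unadjusted p under 0.05, and 14 of the 5697 calls were kept. In the same-slide comparison 2284 calls were kept and 5667 of the 5697 differences had the same direction. Leaving out 1 array gave 2051 (without DMSO 2) to 10574 calls (without BA+DMSO 3), with 3269 and 3050 without DMSO 1 and 3 and 3105 without BA+DMSO 1. The other alternatives gave 4257 to 6577. Of the calls 47.09% were higher, against 64.98% with no filter on dim probes, 61.23% with array brightness as a covariate, 60.53% with 6 arrays, 86.67% with the slide as a term and 86.61% with array weights. The 697 probes past the study's rule became 184 with normexp background correction, 359 with the filter on all 6 arrays, 444 with the slide as a term and 316 with array weights, and 473 (without BA+DMSO 1) to 1266 (without BA+DMSO 3) with 1 array left out. Normexp moved the median difference of all tested probes from -0.0446 to 0.0928. The causes were not tested.

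Of 5186 values of named genes under an alternative, 4400 stayed on the same side of the threshold in the same direction, 723 lost and 59 gained a call, and 4 turned. A difference that passed in neither setting was given no direction. The values that turned were those of Dbp (-1.53) and Hba-a1 (-0.13) in the same-slide comparison, Iigp1 with the brightness covariate (-0.60) and Ltbp4 by another probe (0.12). Of the lists, 32 kept the sign of their median in every setting and 12 did not. Those not described elsewhere were T and natural killer cell genes (to -0.11 with the slide as a term and -0.28 with the brightness covariate) and B cell genes (to -0.078 with quantile normalization, -0.080 with the deposited matrix and -0.36 with the covariate). A probe near background on the arrays of a group is limited by its signal there.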

Other observations

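Genes of metabolism and of the endoplasmic reticulum were measured in the same comparison. Among oxidative phosphorylation genes limma called 0 higher and 0 lower of 52 members (2 and 3 at an unadjusted p under 0.05), with 12 lower without BA+DMSO 3, where 21.0% of all genes were, and 1 higher and 0 lower in the same-slide comparison. The brightness covariate gave 7 higher and 0 lower, where 12.2% and 7.34% of all genes were. Quantile normalization gave 0 higher and 3 lower (9.31% and 11.5% of all genes). Their median of -0.17 ranged from -0.40 with normexp to 0.27 with the brightness covariate over the alternatives and was 0.040 without BA+DMSO 2. Fatty acid oxidation and citrate cycle genes gave 1 higher and 2 lower of 34 (higher 2 without BA+DMSO 2 or BA+DMSO 3, lower 1 without DMSO 1, DMSO 2 or DMSO 3 and 7 without BA+DMSO 3, and 1 and 0 in the same-slide comparison), with a median of -0.18 (-0.11 with the percentile of detected probes, -0.37 with normexp, -0.35 with the slide as a term, 0.11 with the brightness covariate, -0.072 with array weights, -0.076 without BA+DMSO 2 and -0.31 without BA+DMSO 3). Acadm, the medium-chain acyl-CoA dehydrogenase, fell from 4.39, 4.45 and 4.48 to 3.47, 3.51 and 3.85, and Ucp3, a mitochondrial carrier, rose by 2.19. Endoplasmic reticulum chaperones gave 8 higher and 0 lower of 23 (higher 2 without DMSO 2, 3 without DMSO 1 and 5 without DMSO 3 or BA+DMSO 3, lower 1 without BA+DMSO 3), with a median of 0.46 (0.23 with normexp, 0.29 with the slide as a term and 0.30 without BA+DMSO 3) against DMSO and 0.64 against the rapamycin arrays of the same slide, where 6 were higher. With normexp 3 were called higher. Sdf2l1, a chaperone cofactor of the reticulum, rose from -0.01, -0.12 and 0.49 to 2.09, 1.52 and 1.90 (1.72 ± 0.26 SE, adjusted p = 0.00196), and the transcription factor Ddit3 (Chop) differed by -0.41 with no call.

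Of genes that the transcription factor ATF4 is known to induce, 6 were higher and 2 lower of 21, and 4 and 1 in the same-slide comparison. Psat1 of serine synthesis read -0.50, -0.66 and -1.14 in DMSO and 2.67, 1.34 and 2.71 in BA+DMSO (3.01 ± 0.36 SE, adjusted p = 0.000642), and Asns, asparagine synthetase, 0.24, -0.36 and -0.28 and 2.23, 2.15 and 2.48 (2.41 ± 0.26 SE, adjusted p = 0.00037). Both were apart between the groups, whereas Trib3, Atf5 and Ddit4 differed by -0.15, -0.02 and 0.97 with no call. Sterol and fatty acid synthesis genes gave 3 higher and 0 lower of 27 against DMSO (1 without DMSO 2 and 9 without BA+DMSO 2) and 10 higher against the rapamycin arrays, and their median was 0.19 (0.97 in the same-slide comparison, 0.55 with the brightness covariate, 0.11 without DMSO 3, 0.0064 without BA+DMSO 1, 0.55 without BA+DMSO 2 and -0.0048 without BA+DMSO 3). Elovl6, a fatty acid elongase, rose by 1.18. Glycolysis and hypoxia genes gave 5 higher and 3 lower of 26 (higher 1 without DMSO 2, 2 without DMSO 3 and 3 without DMSO 1, lower 7 without BA+DMSO 3, and 3 and 1 in the same-slide comparison), and their median of -0.09 ranged from -0.33 without BA+DMSO 3 to 0.44 with the brightness covariate over the alternatives. Quantile normalization, normexp and the deposited matrix each called 2 of them higher and 4 lower. Adm, the vasodilator adrenomedullin, fell from 2.19, 2.33 and 2.34 to 1.22, 0.21 and 1.16 and Ndrg1 by 0.91, while Vegfa differed by 0.21 with no call. Ribosome biogenesis genes gave 3 higher and 1 lower of 28 (higher 0 without DMSO 2 or DMSO 3 and 6 without BA+DMSO 2, lower 0 without DMSO 1, DMSO 2, DMSO 3, BA+DMSO 1 or BA+DMSO 2 and 2 without BA+DMSO 3, and 0 and 0 in the same-slide comparison), and their median of 0.11 ranged from -0.034 with normexp to 0.22 with the brightness covariate.

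Circadian clock genes gave 1 higher and 3 lower of 17 (higher 3 without BA+DMSO 3, lower 0 without DMSO 2 and 1 without DMSO 3 or BA+DMSO 1, and 0 and 4 in the same-slide comparison), with a median of 0.01 that ranged from -0.48 in the same-slide comparison to 0.32 without BA+DMSO 3. Bhlhe40, a repressor in the clock that other stimuli also induce, rose by 2.07, and Dbp, an output gene, read 2.04, 1.85 and 2.08 against 2.79, 4.18 and 3.97 (1.66, adjusted p = 0.0633). Dbp was above the DMSO arrays on all 3 challenged arrays and below the rapamycin arrays of the same slide, where the difference was -1.53 (adjusted p = 0.0448). Glucocorticoid targets gave 5 higher and 2 lower of 23 (higher 3 without DMSO 2, DMSO 3 or BA+DMSO 1, lower 1 without DMSO 1, DMSO 2 or BA+DMSO 1, and 1 and 2 in the same-slide comparison), with a median of 0.38 (0.17 with normexp, 0.60 with the slide as a term, -0.33 in the same-slide comparison, 0.092 with the brightness covariate, 0.23 with array weights, 0.23 without BA+DMSO 1 and 0.22 without BA+DMSO 2). Angptl4, an inhibitor of lipoprotein lipase, rose by 3.79, and Tsc22d3 (Gilz), a target common to many tissues, differed by 0.27 with no call. Oxidant and antioxidant enzymes gave 7 higher and 3 lower of 24 (lower 7 without BA+DMSO 3, and 2 and 2 in the same-slide comparison), and their median of -0.02 ranged from -0.18 without BA+DMSO 3 to 0.16 with the brightness covariate. Ncf1 and Ncf4, subunits of the phagocyte oxidase, rose by 2.56 and 2.74 and its catalytic subunit Cybb by 1.66, whereas Nox4, the oxidase of SMCs, fell from 5.17, 5.52 and 5.38 to 3.36, 3.60 and 4.67. As macrophage markers also rose, their part in the phagocyte oxidase values was not tested. Hmox1, haem oxygenase, rose by 1.58 and Gstm1, a glutathione transferase, fell by 1.96.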
